A study of Homo sapiens with 6 samples.

Results

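Gene-dense bins are the 100 Kb bins of the 22 autosomes (hg19) in which 5 or more protein-coding genes start and which carried a compartment score in all 6 T47D libraries. They were chosen by gene starts from GENCODE release 44 mapped to GRCh37, so that no score other than its presence entered the choice. They numbered 557 of 26484 scored autosomal bins (2.10%) and held 3548 of the 19229 autosomal protein-coding gene starts (18.5%), with a median of 6 starts and at most 18 in a bin. A start is the outermost annotated position of a gene, and readthrough genes count as genes of their own, without which 77 of the bins would hold fewer than 5. A further 11 bins with 5 or more starts had no score in at least 1 library, 9 of them in none of the 6, and among their genes were near-identical copies of the USP17L, TAF11L, FAM90A, SPDYE2 and TBC1D3 families.

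T47D is an established breast cancer cell line that expresses the estrogen receptor. After 72 h of hormone starvation, parental cells were taken without estradiol (T0) or after 100 nM estradiol (E2) for 1, 4, 16 or 24 h (T1 to T24, by the hour), and a tamoxifen-resistant line (TamR) formed the sixth group, which the labels give as untreated and the methods as kept in 100 nM tamoxifen. Tethered chromatin conformation capture (TCC), a form of Hi-C, measures how often pairs of regions touch, and the deposited score of a bin is the first eigenvector of the contacts between chromosomes, positive in compartment A and negative in compartment B. Each group has 1 library, so no difference between groups has a replicate check and no test was made, and the depth is unknown because the files hold no contact counts. Whether cultures were pooled, and whether the TamR cells are 1 clone, is not given in the sources used here. Scores are printed times 1000. They are scaled within a library (each library's squared scores sum to 0.998 or 0.999), so that levels were compared as percentiles among the 26484 bins of the same library, 100 being the most A-like. Intervals are 95% Wilson intervals over bins, which are too narrow because neighbouring bins are not independent.

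Compartment A collects open, transcribed and early-replicating chromatin, and compartment B collects compact, mostly silent chromatin that often lies at the nuclear lamina. Genes are packed most densely in GC-rich chromatin, where many promoters lie in CpG islands, stretches rich in CG dinucleotides. Some of the densest stretches are instead arrays of duplicated genes, such as olfactory receptors, keratin-associated proteins, zinc fingers, histones and protocadherins, many of which are used in a single tissue or cell type.

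The 200 bases before the start of 5 genes show how unlike the gene-dense bins are in sequence. They were read from GRCh37 and are given 5′ to 3′ on the strand of the gene, with each CG in capitals. PLEKHN1 (chr1:901662-901861, plus strand) starts in the first gene-dense bin of the genome, which was in A in all 6 libraries. OR14K1 (chr1:247901717-247901916, plus strand) and KRTAP19-6 (chr21:31914184-31914383, minus strand) start in olfactory receptor and keratin-associated protein arrays that were in B in all 6. EVX2 (chr2:176948691-176948890, minus strand) starts in a bin that was in A in T0 and after E2 and in B in TamR, and CYP4V2 (chr4:187112521-187112720, plus strand) in a bin with the opposite change.
PLEKHN1: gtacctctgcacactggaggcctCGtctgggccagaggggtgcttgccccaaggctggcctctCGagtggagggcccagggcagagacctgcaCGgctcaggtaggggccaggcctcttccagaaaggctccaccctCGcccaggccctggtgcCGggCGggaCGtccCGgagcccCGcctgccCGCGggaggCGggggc
OR14K1: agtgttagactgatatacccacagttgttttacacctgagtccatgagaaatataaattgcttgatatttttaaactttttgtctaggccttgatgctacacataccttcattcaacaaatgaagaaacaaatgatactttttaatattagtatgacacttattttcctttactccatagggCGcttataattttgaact
KRTAP19-6: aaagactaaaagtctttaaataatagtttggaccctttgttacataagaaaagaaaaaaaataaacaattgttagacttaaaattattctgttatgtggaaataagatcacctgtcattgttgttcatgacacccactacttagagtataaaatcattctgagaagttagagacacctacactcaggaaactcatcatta
EVX2: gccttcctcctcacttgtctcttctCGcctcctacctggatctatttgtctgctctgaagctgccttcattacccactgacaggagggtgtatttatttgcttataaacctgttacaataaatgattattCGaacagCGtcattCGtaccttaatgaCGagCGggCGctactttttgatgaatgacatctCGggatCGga
CYP4V2: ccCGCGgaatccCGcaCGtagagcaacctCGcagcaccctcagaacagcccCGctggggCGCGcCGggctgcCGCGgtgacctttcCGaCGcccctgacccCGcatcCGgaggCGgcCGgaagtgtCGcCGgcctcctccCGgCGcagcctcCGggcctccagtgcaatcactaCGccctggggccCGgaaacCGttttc

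The window of CYP4V2 holds 25 CG dinucleotides, PLEKHN1 12, EVX2 9, OR14K1 1 and KRTAP19-6 0. Over windows of this length at all 19229 autosomal protein-coding genes the median was 12, 95% held at least 1 CG and 56.8% held 10 or more. The 3329 windows of gene-dense bins in A in all 6 libraries were close to that, with a median of 12 and 57.2% at 10 or more. The 169 windows of gene-dense bins in B in all 6 had a median of 1.00, and 28 of them (16.6%) reached 10. Of these windows, 79 were of olfactory receptors, of which 1 reached 10, and 21 of keratin-associated proteins, of which 0 did. The 69 windows of other genes had a median of 3.00, and 27 of them (39.1%) reached 10. Few CG in the window did not go with B in every family, since keratin-associated protein genes had a median of 1.00 both in their 49 starts in A and in their 21 starts in B.

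Gene-dense bins lay in compartment A in all but a small group. In T0, 521 of 557 were in A (93.5%, 95% interval 91.2 to 95.3%), where 46.9% of all scored bins were. The count was 524 in T1 and in T4 (94.1%) and 523 in T16, T24 and TamR (93.9%), beside 46.9, 47.7, 47, 44.8 and 48.3% of all bins. Over the 6 libraries 517 were in A in every library (92.8%, 90.4 to 94.7%; 39.0% of all bins), 31 in B in every library (5.57%, 3.95 to 7.79%; 44% of all bins), and 9 had both signs (1.62%, 0.852 to 3.04%; 17.0% of all bins). The gene-dense bins in A in all 6 held 3329 gene starts, those in B in all 6 held 169 and the others 50.

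The share in A was higher in bins with more gene starts, as the plot of shares by starts shows, though not at every step from 6 upwards. Bins without a gene start were in A in 29.9 to 33.8% of cases over the 6 libraries, and bins with 1 start in 60.1 to 64.0%. Just outside the limit of 5, the 487 bins with 4 starts were in A in 86.4 to 89.1%, and just inside it the 238 bins with 5 starts in 89.1 to 89.9%. Among the 146 bins with 6 starts the share was 95.9 to 96.6%, with 7 starts it was 93.8 to 95.4%, with 8 it was 100% and with 9 it was 96.4%. All 39 bins with 10 or more starts were in A in each library, and of the 108 with 8 or more a single bin was in B, the keratin-associated protein array on chromosome 21.

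**Figure D1:**
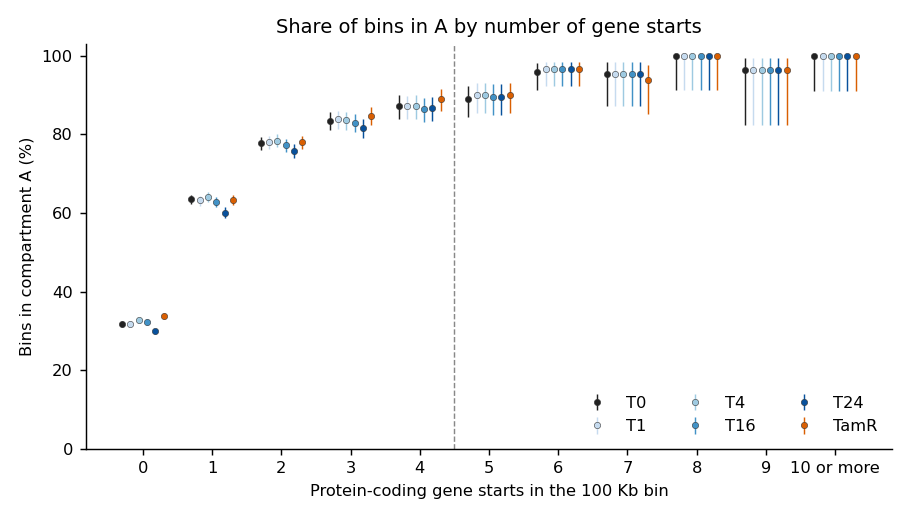
Percent of bins in compartment A (vertical axis) by the number of protein-coding gene starts in the bin (horizontal axis), for each library, with 95% Wilson intervals as bars; bins to the right of the dashed line are gene-dense. The share climbs from 31.8% at 0 starts to 89.1% at 5 starts in T0, and the 6 libraries lie close together at each number of starts from 5 upwards.

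Their scores were also far from the border. The median percentile of the gene-dense bins was 95.4 in T0 and 95.2 to 95.5 in the 6 libraries, where all bins have 50 by construction and bins with 1 to 4 starts had 69.8 in T0. In T0, 397 of the 557 (71.3%) were among the highest 10% of all scores, of which they made up 15%, and they held 105 of the 265 bins (39.6%) of the highest 1%. In TamR the last count was 95 (35.8%). The 5 gene-dense bins that kept the highest percentiles lie near chromosome ends: chr9:139700001-139800000 (RABL6 to TRAF2), chr9:139800001-139900000 (FBXW5 to CLIC3), chr9:140000001-140100000 (DPP7 to TPRN), chr16:600001-700000 (PRR35 to WDR90) and chr16:88700001-88800000 (IL17C to CTU2). The first of them, with TRAF2, an adaptor of tumour necrosis factor receptors, scored 17.14, 17.86, 17.51, 17.73, 20.09 and 16.08 in T0, T1, T4, T16 and T24 and in TamR.

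The fullest bins were not the strongest. The bin with the most starts, chr5:140700001-140800000, holds TAF7 and 17 gamma protocadherins, cell adhesion proteins of neurons, and lay in A at percentiles of 77.6 in T0 and 68.3 in TamR. The next, chr6:31600001-31700000 in the class III region of the major histocompatibility complex, has 15 starts (APOM, BAG6, CSNK2B, the LY6G genes and others) and percentiles of 99.3 to 99.8. Bins with 14 starts at chr3:50300001-50400000 (the hyaluronidases HYAL1, HYAL2 and HYAL3, with RASSF1), chr11:62400001-62500000 (GANAB to TTC9C) and chr14:24600001-24700000 (the proteasome activators PSME1 and PSME2, with IRF9) had percentiles in T0 of 95.8, 98.2 and 92.5.

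GC content moved with these shares. The median GC content was 51.0% in the gene-dense bins in A in all 6 libraries, 37.9% in those in B in all 6 and 41.5% in the 9 with both signs, and 39.9% over all bins. All 306 gene-dense bins with 50% GC or more were in A in T0. Under 38% GC, 5 of 21 were in A (23.8%, 10.6 to 45.1%), much as among bins with 1 to 4 starts in that band (22.6%). Between 38 and 42% the shares were 67.4% with 5 or more starts, 58.6% with 1 to 4 and 35.5% with none, and between 42 and 46% they were 94.1, 82.5 and 59.8%. In each band the share lay above that of bins without a gene start, though under 38% its interval took in that share too. The interval also took in the share of bins with 1 to 4 starts under 42% and between 46 and 50%. What part GC content had in the share was not tested.

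**Figure D2:**
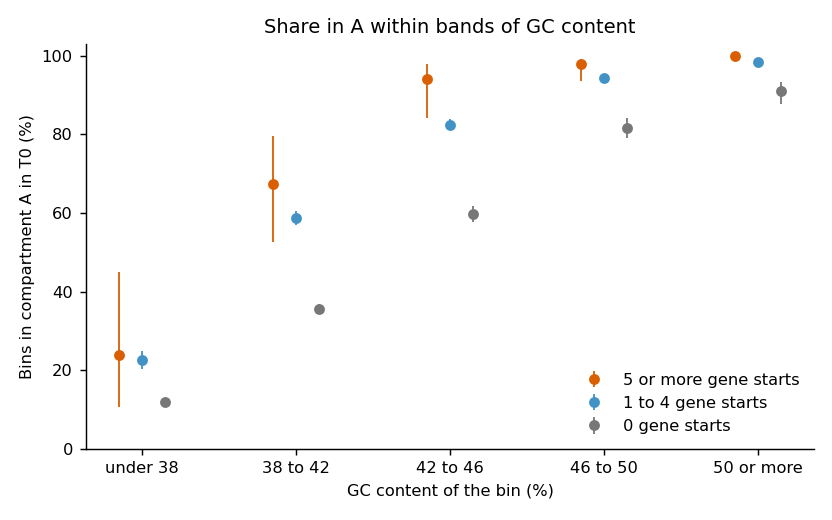
Percent of bins in compartment A in T0 (vertical axis) in 5 bands of GC content (horizontal axis) for bins with 5 or more, 1 to 4 and 0 protein-coding gene starts, with 95% Wilson intervals as bars. All 3 groups climb with GC content, and the gene-dense bins reach 100% at 50% GC or more.

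The 31 gene-dense bins in B in all 6 libraries were mostly arrays of duplicated genes. A family-cluster bin was defined by 3 or more starts of a single gene family, and of 87 such gene-dense bins 22 were in B in all 6 (25.3%), against 9 of the 470 others (1.91%). Without chromosome 11, the share of gene-dense bins in B in all 6 fell from 5.57 to 3.00%. The 31 bins lay on chromosomes 11 (16 bins), 1 (4), 9 (3), 21 (3), 13 (2), 4, 7 and 15 (1 each). Their median percentile was 11.1 in T0, 14.2, 12.2, 13.2 and 16.2 in T1, T4, T16 and T24, and 28.1 in TamR. Of the 36 gene-dense bins in B in T0, 28 had a bin in B on both sides. No share over all B bins was computed for this count. The median run of B bins around the 36 was 23 bins long, shorter than the median over all B bins in T0.

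Olfactory receptors, the odorant receptors of the nose, made up the largest group. Of the 413 autosomal olfactory receptor genes, 88 start in 24 gene-dense bins, and 79 of those starts (89.8%) were in bins that were in B in all 6 libraries. Of 17 olfactory receptor cluster bins 16 were in B in all 6, among them 7 bins on chromosome 11 between OR52I2 and OR10A4 and 4 on that chromosome between OR5D13 and OR4D9. The bin with the most receptors, chr11:123800001-123900000 (OR4D5, OR6T1, OR10S1, OR10G6, OR10G4, OR10G9 and OR10G8), scored -7.18, -6.74, -7.22, -7.35, -6.14 and -4.63 in T0, T1, T4, T16 and T24 and in TamR, all well below the border. The bin of OR14K1 (chr1:247900001-248000000, with OR14A2, OR1C1, OR9H1P and OR14A16) lay lower, with scores of -8.09, -8.76, -8.59, -8.31, -8.05 and -6.63. The exception was chr19:9200001-9300000, which holds OR7G2, OR7G1, OR7G3, OR7D2 and the zinc finger gene ZNF317 and was in A in each library, with 0.17, 0.46, 0.29, 1.53, 2.54 and 7.99.

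Keratin-associated proteins, which fill the spaces between keratin filaments in hair, lay in both compartments. Of their 70 starts in gene-dense bins 49 were in A in all 6 libraries and 21 in B in all 6. The 3 bins in B form a block at chr21:31700001-32000000 and lay near the bottom of the genome. The bin with 9 starts (KRTAP19-6, KRTAP6-1, KRTAP20-1 and others) had percentiles of 0.302, 0.0227, 0.0302, 0.121, 0.230 and 0.423 in the 6 libraries. Their relatives on chromosomes 11 and 17 were in A, as was a second array of chromosome 21 at chr21:46000001-46100000 (KRTAP10-5 to KRTAP10-9 and others), with percentiles of 95.4 to 97.6. The fullest bin, with 11 starts at chr17:39200001-39300000 (KRTAP2-1 to KRTAP4-6), had percentiles between 93.6 and 98.2, and the chromosome 11 bin (KRTAP5-1 to KRTAP5-5) 93.7 to 96.9. The bins of KRTAP10-5 and KRTAP5-1 were named after their values were seen. The keratins beside the chromosome 17 arrays, among them KRT31 and KRT33A at chr17:39500001-39600000, were in A as well, with all 24 starts of the family in A in all 6.

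Interferons and globins gave the remaining family clusters in B. All 9 starts of type I interferon genes in gene-dense bins, antiviral cytokines at chr9:21200001-21400000, were in B. The bin of IFNA7, IFNA10, IFNA16, IFNA17 and IFNA14 scored -3.89, -3.76, -3.82, -4.68, -5.11 and -1.74, and that of IFNA5, IFNA6, IFNA13, IFNA2 and the ubiquitin ligase adaptor KLHL9 scored -3.77, -3.45, -3.80, -3.67, -4.73 and -1.04. The globin genes, whose 10 autosomal starts all lie in gene-dense bins, had 5 starts in A and 5 in B. The alpha-like cluster at chr16:200001-300000 had percentiles of 98.8 to 99.6, and the beta-like genes at chr11:5200001-5300000, flanked by olfactory receptors, had 9.33 to 15.3.

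The 9 bins in B without a family cluster were of several kinds. The bin chr13:57700001-57800000 holds PRR20A to PRR20E, near-identical copies, and was the lowest of all gene-dense bins in T0 (score -9.74, percentile 0.0302). The bin chr4:71200001-71300000 holds genes of saliva proteins (SMR3A, SMR3B, OPRPN and MUC7) with CABS1 and had percentiles of 19.3 to 25.2. Other bins included genes used in most cells, and those of PRR20A, RIGI, TRIM6 and CNGA4 were named after their values were seen. RIGI, a sensor of viral RNA, TOPORS, a ubiquitin and SUMO ligase, and NDUFB6, a subunit of respiratory complex I, share chr9:32500001-32600000, which scored -2.0, -1.87, -2.38, -2.25, -2.35 and -0.88. ERCC5, a nuclease of nucleotide excision repair, and POGLUT2 share chr13:103400001-103500000, with -1.92, -1.98, -2.09, -2.38, -1.95 and -3.14. ARF5, a small GTPase of the Golgi, and SND1 share chr7:127200001-127300000 with the pancreatic factor PAX4, at -2.10, -2.10, -2.37, -2.65, -2.19 and -3.16. SSRP1, a subunit of the histone chaperone FACT, shares chr11:57100001-57200000 with the eosinophil genes PRG2 and PRG3, at -0.25, -0.79, -0.89, -0.70, -0.34 and -0.59. These 4 bins stayed below the border in each library, with percentiles of 35.4 to 53.4. The remaining 3 were chr1:159800001-159900000 (VSIG8, CFAP45 and TAGLN2), chr11:5600001-5700000 (TRIM6 and TRIM34) and chr11:6200001-6300000 (CNGA4 and CCKBR), which also hold tissue-specific genes.

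Other families lay wholly in A. All 97 zinc finger gene starts, in 47 gene-dense bins, were in A in all 6 libraries, as were all 64 histone starts in 10 bins and all 42 protocadherin starts in 4 bins. Chromosome 16 holds the fullest zinc finger bin (chr16:30500001-30600000, with ZNF768, ZNF747, ZNF764, ZNF688 and ZNF785) at percentiles of 93.7 to 97.7, and the histone bin chr6:26100001-26200000, with 10 histone genes, had 86.4 to 89.6. S100 genes (13 starts), chemokines (12), metallothioneins (7), apolipoproteins (9) and the growth hormone genes (5) were also in A in all 6. Over all starts of gene-dense bins the share was 93.8%, and for such short lists a full count is near it. Of 30 HOX starts, body-plan regulators, 24 were in A in all 6 and 6 in a bin with both signs, and of 22 starts of late cornified envelope and SPRR genes, structural proteins of the skin surface, the counts were 17 and 5. The plot of family medians shows the order, with the olfactory receptors lowest.

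**Figure D3:**
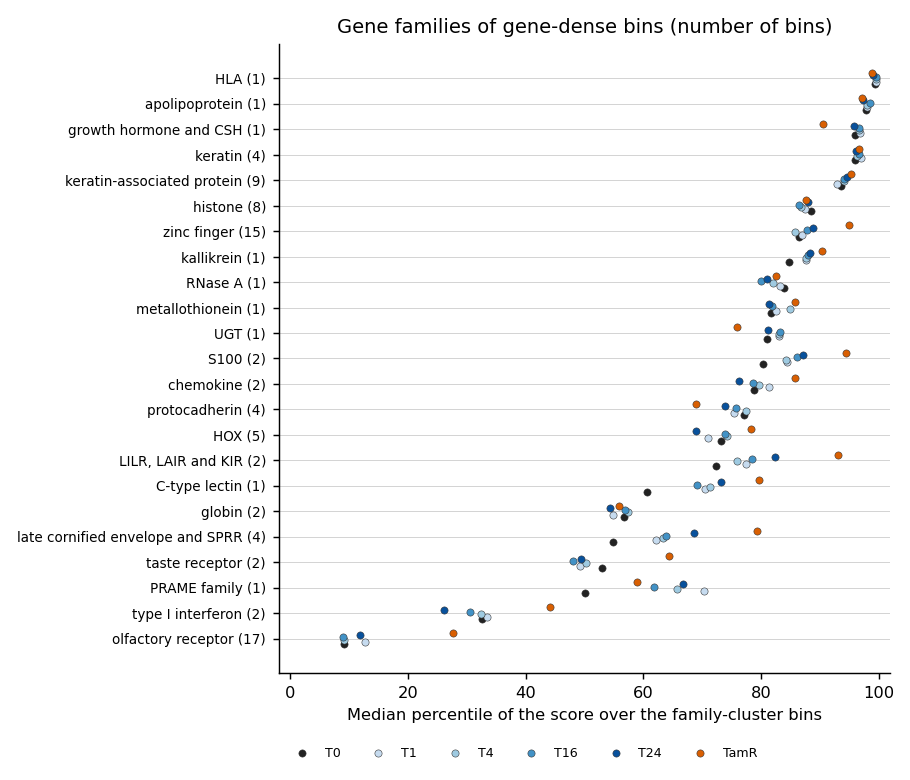
Median percentile of the score over the gene-dense family-cluster bins of each family (horizontal axis), with 1 point per library and the number of bins in brackets, ordered by T0. Olfactory receptor bins lie lowest at 9.12 in T0 and 27.6 in TamR, and late cornified envelope and SPRR bins move from 54.8 in T0 to 79.4 in TamR.

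Genes of machines that every cell uses were in A about as often as the other starts of gene-dense bins, of which 93.8% were in A in all 6 libraries. In gene-dense bins, all 27 ribosomal protein gene starts, all 24 of mitochondrial ribosomal proteins, all 14 of the proteasome, all 11 of translation initiation factors and all 7 of RNA polymerase II subunits were in A in all 6 libraries, with family medians of the T0 percentile between 95.7 and 97.8. These lists are short, and a count of all members in A is near the 93.8% of all such starts. Of 10 starts of NADH dehydrogenase subunits 9 were in A and NDUFB6 was in B. A list of 53 estrogen-responsive or endocrine genes in scored bins had 4 in gene-dense bins, which hold 18.5% of all autosomal starts, and all 4 were in A in all 6. The bin of FKBP4, a co-chaperone of steroid receptors, had percentiles of 93.9, 96.4, 94.7, 94.0, 95.1 and 96.9, that of ERBB2, a growth factor receptor, had 99.8, 99.3, 99.6, 99.2, 99.3 and 100, and the bin shared by the keratins KRT13 and KRT19 had 97.9, 97.8, 98.5, 97.8, 97.9 and 96.7. Each of these 3 bins stayed within a few percentile points over the 6 libraries.

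Gene-dense bins were spread unevenly over the chromosomes. Chromosome 19 held 109 of them, 19.6% of its scored bins, and all were in A in T0, as were the 59 of chromosome 17 and the 42 of chromosome 16. On chromosome 11, 41 of 57 were in A (71.9%). On 20 of 22 autosomes the share in A was higher in gene-dense bins than in the others in each of the 6 libraries. The exceptions were chromosome 13, with 0 of 2, and chromosome 21, with 2 of 5. In T0 the gene-dense bins in A lay in runs of A bins with a median of 66.0 bins, longer than the median over all A bins. Of the 521, 505 had a bin in A on both sides, and no share over all A bins was computed for this count.

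Over the E2 course the compartments of gene-dense bins hardly changed. Relative to T0 the sign differed for 3 bins in T1 (0.539%, 0.183 to 1.57%; 3.12% of all bins), 3 in T4 (3.00% of all bins), 4 in T16 (0.718%, 0.280 to 1.83%; 3.80% of all bins) and 4 in T24 (5.17% of all bins). These 4 comparisons share T0. By trend over the 4 E2 time points, 520 were A→A (93.4%, 91.0 to 95.1%; 43.0% of all bins), 33 B→B (5.92%, 4.25 to 8.20%; 50%), 0 A→B (0.785% of all bins), 3 B→A (0.539%; 0.634%) and 1 miscellaneous (0.180%, 0.0317 to 1.01%; 5.62%). The B→A count of gene-dense bins was near the background. The miscellaneous count was below it.

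The 3 B→A bins crossed the border by T1 and stayed above it. The bin of LCE3E, LCE3D, LCE3C, LCE3B and LCE3A (chr1:152500001-152600000) scored -1.29, 0.66, 1.48, 1.15 and 1.82 in T0, T1, T4, T16 and T24. The bin of PRAMEF2, PRAMEF4, PRAMEF10 and PRAMEF7, members of a germ-line antigen family, with HNRNPCL1 (chr1:12900001-13000000) scored -0.57, 3.23, 2.57, 1.69 and 2.26. The bin of PSPH, CCT6A, SUMF2, PHKG1, CHCHD2 and NUPR2 (chr7:56100001-56200000), which encode a serine synthesis enzyme, a chaperonin subunit and others, scored -0.29, 0.01, 0.01, 0.12 and 0.78. In the last bin the values at T1, T4 and T16 lay at the border itself, while in the PRAME bin T0 stood apart from the 4 E2 libraries. The miscellaneous bin, chr11:85300001-85400000 (DLG2, TMEM126B, TMEM126A, CREBZF and CCDC89), scored 0.67, 0.04, 0.18, -0.17 and -0.32, all within a narrow band around 0.

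Percentiles are bounded at 100 and most gene-dense bins lie near that ceiling in T0, which limits how far they can move. The median range of a bin's percentile over the 5 parental libraries was 1.77 points in gene-dense bins and 4.84 in all bins. At like T0 percentiles it was not smaller, except above the 95th, where it was 0.935 points against 1.24 in bins with fewer than 5 starts. Between the 90th and the 95th it was 2.18 against 2.06 points, and between the 80th and the 90th 3.40 against 2.87. These bands were chosen after the values were seen. At T24, 12 gene-dense bins were over 10 points higher than in T0 (2.15%, 1.24 to 3.73%; 3.62% of all bins) and 0 were over 10 points lower (0%, up to 0.685%; 1.42% of all bins). All 4 late cornified envelope and SPRR bins were among the 12, in the epidermal differentiation region of chromosome 1. The bin of LCE1A to LCE1F (chr1:152700001-152800000) had percentiles of 58.5, 64.4, 69.3, 69.8 and 74.0 over T0 to T24, and that of SPRR1B and SPRR2A (chr1:153000001-153100000) had 53.7, 59.9, 60.8, 62.1 and 68.0. In both, T24 was the highest of the parental libraries and T0 the lowest. The other 8 included 4 olfactory receptor bins, the PRAME bin, a killer cell receptor bin on chromosome 19 (KIR2DL4 to FCAR), a natural killer lectin bin on chromosome 12 (KLRK1 to KLRC2) and the bin of GIMAP1 and TMEM176A.

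**Figure D4:**
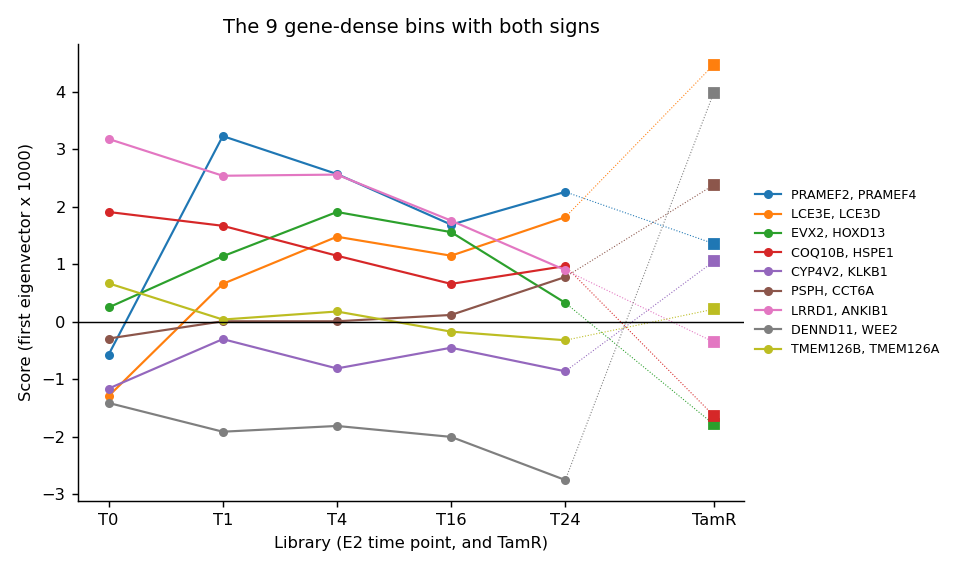
Score times 1000 (vertical axis) in each library (horizontal axis) for the 9 gene-dense bins that had both signs, each named by 2 of its genes; solid lines join the parental libraries, squares are TamR and dotted lines lead to them. The LCE3 bin and the PSPH bin start below 0 in T0 and end above it, and the HOXD, HSPE1 and LRRD1 bins are above 0 in the parental libraries and below it in TamR.

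More gene-dense bins differed between T0 and TamR than within the E2 course, and fewer than among bins at large. The sign differed for 8 (1.44%, 0.730 to 2.81%; 13.8% of all bins), of which 3 went from A to B (0.539%; 6.22% of all bins) and 5 from B to A (0.898%, 0.384 to 2.08%; 7.56% of all bins). With all 5 parental libraries as the base, 3 went from A to B (3.95% of all bins) and 2 from B to A (0.359%, 0.0985 to 1.30%; 6.0% of all bins). The other 3 that went from B to A were the LCE3, PRAME and PSPH bins of the E2 course, with TamR scores of 4.47, 1.36 and 2.38. Of these, the PRAME bin scored lower in TamR than in each E2 library.

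The bins that went from A to B held a homeobox array, a chaperonin pair and the gene KRIT1. EVX2, HOXD13, HOXD12, HOXD11, HOXD10, HOXD9 and HOXD8, transcription factors of limb and trunk patterning, share chr2:176900001-177000000, which scored 0.25, 1.14, 1.91, 1.56, 0.33 and -1.78 in T0, T1, T4, T16 and T24 and in TamR. HSPD1 and HSPE1, the mitochondrial chaperonin and its co-chaperonin, share chr2:198300001-198400000 with COQ10B and MOB4, at 1.91, 1.67, 1.15, 0.66, 0.97 and -1.63. KRIT1, a scaffold of endothelial junctions, shares chr7:91800001-91900000 with LRRD1 and ANKIB1, at 3.18, 2.54, 2.56, 1.76, 0.90 and -0.35. In all 3 the TamR value was the lowest of the 6 and the only value below 0. Without readthrough genes the HSPD1 bin would hold 4 starts and the KRIT1 bin 3, too few to count as gene-dense.

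The 2 bins that went from B in all parental libraries to A held bitter taste receptors and liver genes. TAS2R3, TAS2R4 and TAS2R5, with DENND11, WEE2 and SSBP1, a mitochondrial DNA-binding protein, share chr7:141400001-141500000, which scored -1.41, -1.91, -1.81, -2.0, -2.75 and 3.98. Its values were below 0 in each parental library, lowest in T24, and TamR was the highest of the 6. CYP4V2, a fatty acid hydroxylase, shares chr4:187100001-187200000 with KLKB1 and F11, which encode clotting proteins made in the liver, at -1.16, -0.30, -0.81, -0.45, -0.86 and 1.05. The CYP4V2 bin would hold 4 starts without readthrough genes, too few to count as gene-dense.

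By percentile the gene-dense bins differed between T0 and TamR by a median absolute difference of 1.78 points, against 7.11 in all bins, but 160 of them (28.7%) had a T0 percentile under 90 and so room to rise by over 10 points. At like T0 percentiles the difference was close to that of bins with fewer than 5 starts, with 7.97 points against 8.59 between the 50th and the 80th, 4.77 against 4.20 between the 80th and the 90th and 0.819 against 1.03 above the 95th. For 42 gene-dense bins TamR was over 10 points higher (7.54%, 5.63 to 10%; 18.6% of all bins) and for 17 it was over 10 points lower (3.05%, 1.91 to 4.83%; 19.5% of all bins). Between the 50th and the 80th percentile in T0, 17 of 57 gene-dense bins were over 10 points higher (29.8%, against 13.1% of bins with fewer than 5 starts) and 6 over 10 points lower (10.5%, against 29.6%). TamR lay above all 5 parental libraries in 162 gene-dense bins (29.1%; 36.4% of all bins) and below all 5 in 226 (40.6%; 42.9%). Of the 42 that were higher, 31 were family-cluster bins and 16 lay on chromosome 19. Of the 17 that were lower, 2 were family-cluster bins and none lay on chromosome 19. Among all 557 gene-dense bins, 87 were family-cluster bins and 109 lay on chromosome 19. The family-cluster bins had a median T0 percentile of 76.5, against 96.3 for the other 470, and so more room to rise. In all 42 and all 17 the TamR percentile lay outside the range of the 5 parental libraries. The median of that range was 1.77 points in gene-dense bins, and these bins were picked for a difference of over 10. The full counts thus follow largely from the choice. No share over all bins stands beside them, and nothing is drawn from them.

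Zinc finger arrays near the end of chromosome 19 held the largest difference. Bins that kept their compartment are named here and in what follows after their values were seen. The bin of ZNF543, ZNF304 and ZNF547 (chr19:57800001-57900000) had percentiles of 59.1, 62.0, 57.9, 62.4, 68.1 and 95.5 in T0, T1, T4, T16 and T24 and in TamR, and a score of 1.18 in T0 and 11.12 in TamR. The bin of ZNF814, ZNF417, ZNF418 and ZNF256 (chr19:58400001-58500000) had 65.9, 70.7, 66.6, 62.7, 72.1 and 96.1. All of these bins were in A throughout, so that no change of compartment was counted. All 10 zinc finger cluster bins of chromosome 19 were higher in TamR than in T0, by 2.78 to 36.4 points and by over 10 in 8, with a median of 20.9. Several of the 8 adjoin each other, as at chr19:57800001-58200000, so they are not independent. A difference of the family and one of this stretch of chromosome 19 cannot be told apart here. Of the 16 gene-dense bins of chromosome 19 over 10 points higher, only these 8 were zinc finger cluster bins. The others included the bin of TRIM28 and UBE2M (chr19:59000001-59100000), at 85.7 in T0 and 98.8 in TamR. The 5 zinc finger cluster bins on other chromosomes differed by -2.65 to 1.68 points. Their T0 percentiles were 90.8 to 98.8, so that they had no room to rise by over 10 points. Bins of chromosome 19 with fewer than 5 starts had a median difference of 3.14, and bins of all autosomes with fewer than 5 starts and T0 percentiles in the range of the 10 (59.1 to 90.4) had one of -2.89, with 7.77% of them over 10 points higher.

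**Figure D5:**
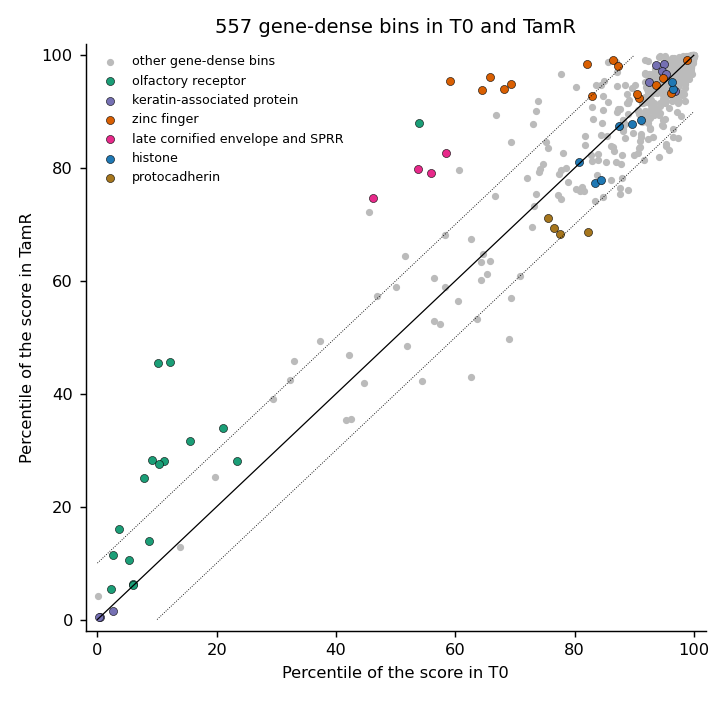
Percentile of the score in TamR (vertical axis) against T0 (horizontal axis) for the 557 gene-dense bins, coloured by family cluster; the solid line marks equal percentiles and the dotted lines a difference of 10 points. Zinc finger bins with T0 percentiles of 59.1 to 69.3 and the 4 late cornified envelope and SPRR bins lie above the upper dotted line, and the 4 protocadherin bins lie below the solid line.

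Olfactory receptor bins were higher in TamR too, within compartment B. All 17 olfactory receptor cluster bins had a higher percentile in TamR than in T0, by over 10 points in 10. Some of the 17 adjoin each other, as at chr11:5700001-6000000, and are not independent. The 16 in B in all 6 libraries had a median difference of 12.6, and bins with fewer than 5 starts in the same range of T0 percentiles (2.33 to 23.4) had one of 3.52, with 62.7% of them higher and 33.9% over 10 points higher. The bin of OR5A1, OR4D6, OR4D10, OR4D11 and OR4D9 (chr11:59200001-59300000) scored -7.21, -6.45, -6.78, -6.86, -5.05 and -1.12, and that of OR2AG1, OR6A2, OR10A5, OR10A2 and OR10A4 (chr11:6800001-6900000) scored -6.99, -7.13, -7.86, -7.25, -6.69 and -1.11. Both came close to the border in TamR alone. The 3 bins at chr11:55500001-55600000 and chr11:56000001-56200000, with OR5D, OR5T and OR8 genes, differed by under 4 points and scored -8.25, -8.11 and -8.14 in TamR.

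Skin barrier arrays and some immune receptor arrays also lay higher in TamR. The 4 late cornified envelope and SPRR bins were higher in TamR than in T0 by 23 to 28.5 points. Bins with fewer than 5 starts in their T0 range had a median difference of -3.86. The median percentile of the 4 was 54.8 in T0, 68.6 in T24 and 79.4 in TamR. T24 thus lay above T0 as well. Both differences use the same single T0 library, which was the lowest parental library in all 4 bins. Both S100 cluster bins, which lie in the same region of chromosome 1, were higher, the one with S100A8, S100A9 and S100A12 at 73.8 in T0 and 91.9 in TamR, where 3.67% of bins with fewer than 5 starts in the same T0 range were over 10 points higher. Both bins of leukocyte and killer cell immunoglobulin-like receptors on chromosome 19 were higher by 19 and 22.5 points (9.96% of such bins in that T0 range were over 10 points higher). Both interferon bins were higher by 10.1 and 12.9 (23%). Family medians in T0, T24 and TamR were 80.4, 87.1 and 94.5 for S100 and 72.3, 82.4 and 93.1 for the immunoglobulin-like receptors. Those of the interferon bins were 32.6, 26.1 and 44.2. All 4 protocadherin cluster bins were lower in TamR, the bin of PCDHB4 to PCDHB13 (chr5:140500001-140600000) having 82.3, 80.9, 81.4, 78.4, 79.0 and 68.6. The median of the 4 was -8.17, where bins with fewer than 5 starts in that T0 range had a median of -3.02 and 36.5% were higher. The 8 histone bins, 7 of them lower, had a median of -2.09, near the -1.38 of such bins in their range. Besides the 3 bins that went to B, those over 10 points lower included the bins of CHD4 and ING4 on chromosome 12 (97.4 in T0 and 85.4 in TamR) and of DDB2 and NR1H3 on chromosome 11 (95.8 and 83.2). The bin of the Fc receptor genes FCGR3B and FCGR2B on chromosome 1 was lower too, with 69.3 in T0 and 57.0 in TamR.

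How near a bin lay to the border in T0 moved with how often its sign differed. Only 10 gene-dense bins (1.80%) had an absolute T0 score under 1, against 10.5% of all bins, and 425 (76.3%) had 8 or more, against 16.5%. From T0 to TamR the sign differed in 3 of the 10 under 1 (30.0%, 10.8 to 60.3%; 45.1% of bins with fewer than 5 starts), 4 of 14 between 1 and 2 (28.6%, 11.7 to 54.6%; 32.1%) and 1 of 21 between 2 and 4 (4.76%, 0.846 to 22.7%; 17.6%). It differed in 0 of 87 between 4 and 8, which allows up to 4.23%, where 5.03% of bins with fewer than 5 starts differed, and in 0 of 425 at 8 or more, which allows up to 0.896%, against 0.355%. In each band except that between 4 and 8 the interval took in the share of bins with fewer starts, so a difference at equal distance from the border was not detectable there with these counts.

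Across gene-dense bins, which are not replicates and share their libraries, Pearson correlations of the scores were 0.984 to 0.994 for pairs of parental libraries and 0.921 to 0.930 for pairs with TamR.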

How the data were processed

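TCC was measured in 6 T47D libraries, 1 per group. Per the methods, the authors aligned reads to hg19 with bowtie2, corrected the contact matrix with HiCLib, removed contacts within chromosomes and computed the first eigenvector, deposited as a score per 100 Kb bin, and a score of 0 was taken as no value. Scores were used as deposited, with 0 as the border. Scored bins, gene starts (GENCODE release 44 on GRCh37), GC content and promoter windows were joined with Python 3.11.15, numpy 2.4.6, pandas 2.3.3, scipy 1.17.1 and matplotlib 3.10.9. Chromosome lengths of the reference match the bins. Families were defined by symbol patterns. The code for trends, states and intervals was tested on simulated tracks. Bins were named as follows: the 15 with the most starts in B in all 6 libraries, all that changed sign in TamR or at all 4 E2 time points, the miscellaneous, the 5 fullest, the 5 strongest, the fullest bin of each clustered family, and estrogen-list genes, with exceptions stated. Further exceptions are the bins of OR7G2, IFNA5, HBB, SPRR1B, KIR2DL4 and GIMAP1, which these rules do not pick and which were named with their values known. The KRTAP19-6 sequence was added after the values were seen. Members and lists were chosen with earlier results of these data known. No test was made, as each group has 1 library. Alternatives were other gene-start limits and counts, borders, bin filters, units and references.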

Additional observations from a re-analysis of the deposited data

How the results depend on the processing

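The limits are 1 library per group, an unknown depth, no replicate error, neighbouring bins that are not independent, and gene starts from an annotation that splits or merges some loci. No paired analysis was possible because each group has 1 library and no test was made. Of 262 values under 17 alternatives, 192 stayed within the 95% interval of the main value and 70 did not. Values with a score required only in the libraries compared, with chromosome X added, with adjacent gene-dense bins joined into 389 runs, without chromosome 19, or without any E2 time point stayed within it. Orientation by GC content turned 0 of 132 chromosome tracks.

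With 4 or more starts the share in A was 90.6, 90.8, 90.9, 90.4 and 90.5% in T0, T1, T4, T16 and T24. The sign differed from T0 to TamR in 3.74%, from B to A in 2.39%, and the trends were A→A 89.6%, B→B 8.33% and miscellaneous in 1.34% of bins. Percentiles had medians of 93.5, 93.7, 93.5, 93.8, 93.7 and 93.4. With 8 or more starts 99.1% were in A in each library and A→A, 0.926% were in B in all 6 and B→B, and 0% changed from T0 at any E2 time point or in TamR in either direction, or were B→A or miscellaneous. The median percentiles were then 96.9, 97.7, 97.8, 97.6, 97.2 and 97.0, with a median difference of TamR from T0 of -0.362, against -0.106 in the main count. With readthrough genes left out and starts within 1 kb counted once, 347 bins remained, 0% were miscellaneous, and the medians were 96.4, 96.1 and 96.1 in T1, T16 and TamR. From T0 to TamR 1 of the 347 then went from A to B (0.288%) and 4 from B to A (1.15%), both within the interval.

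With the border at each library's median 0.180% were B→A, and from T0 to TamR 0.718% went from A to B and 0.539% from B to A, so that the larger of these 2 shares was the other one than with the border at 0. Without weak bins (a score among the 10% closest to 0 in at least 1 library), 0% changed at T1, T4, T16 or T24, were B→A or miscellaneous, or went from A to B in TamR, and 0.186% differed in TamR, all from B to A. This filter removes bins near the border by construction. With the majority of the parental libraries as the reference 0.359% went from B to A, below the 0.539% from A to B. Ranked within each chromosome, the medians were 90.5, 91.2, 91.5, 91.1, 91.1 and 89.5, with a difference of TamR from T0 of -0.358. Without family-cluster bins the share in A was 97.7% in T0, T16, T24 and TamR and 97.9% in T1 and T4, and 1.91% were in B in all 6. With 1 chromosome left out at a time, the lowest share changed from T0 to T1 was 0.201%, without chromosome 1, and from A to B in TamR 0.185%, without chromosome 2.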
